A study of Mus musculus with 24 samples.

Results

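The 10 genes followed here belong to antioxidant defence and were measured across 6 organs of mice that lack Nur77, the orphan nuclear receptor encoded by Nr4a1. They were 3 genes of the thioredoxin system (Txnip, Txn1 and Txnrd1), the metallothioneins Mt1 and Mt2, the glutathione transferase Gsta4, the peroxiredoxin Prdx1, the superoxide dismutases Sod1 and Sod2, and catalase, Cat. All probes that the platform annotation assigns to these symbols were taken, and the probes of a gene were averaged. All 10 of the 10 genes were present, on 15 probes, among 9834 genes with a symbol. The genes, with Txnip and Mt2 as the lead genes, were chosen with their values on these same arrays in view, so their values are a description. Where a count of calls among them is given, it stands beside the share over all rows and nothing is read from it.

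Pooled RNA of Nur77-/- mice was hybridised with pooled RNA of Nur77+/+ wild-type mice on 2-colour cDNA arrays. The organs were lung, spleen, testis, skeletal muscle, heart and brown adipose tissue, with 4 arrays each and 24 in all. In each organ, Cy5 marked the mutant RNA on replicates 1 and 2 and Cy3 marked it on replicates 3 and 4. The design text gives 7 mice per pool, but the protocol for labelling names 6 control animals. Age, sex and strain are not given by the labels. Within an organ the same pools were compared 4 times, so an SD or a p-value here covers the spread between hybridisations and not that between mice. In whole organs, fewer cells of a type and less RNA per cell cannot be told apart.

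The values are log2 ratios, read as mutant over wild type, so that a negative value stands for a lower level in the mutant pool. This direction is likely but not stated, and values with the signs of the Cy3 arrays turned are given where they differ most. The 4874 ratios of very large size bear only on whether the arrays are oriented alike. Under this reading each of them points to more signal in Cy5 than in Cy3. With wild type over mutant on every array, each would point the other way, just as uniformly. These ratios therefore cannot tell mutant over wild type from its inverse. Only Nr4a1, the deleted gene, bears on that choice, and it was below 0 on 21 of 22 arrays. Its organ means ran from -0.20 in testis to -1.77 in skeletal muscle. Its mean was -0.99 ± 0.75 where Cy5 marked the mutant RNA and -0.62 ± 0.39 where Cy3 did (SD, n = 11 each). With the signs of the Cy3 arrays turned, its Cy3 mean would be above 0. Between 13316 and 19340 probes had a usable value on an array, and array medians ran from -0.78 to 0.67. Arrays of the same organ correlated weakly across probes, with a median Spearman rho of 0.116 at the same dye orientation and of -0.05 at opposite orientations. The wild-type channel of heart replicate 2 is labelled as skeletal muscle. On that array the cardiac muscle markers had a median of -0.10 and the skeletal muscle markers one of -0.04, beside -0.47 to -0.30 and -0.23 to -0.06 on the other heart arrays, and it was kept.

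Thioredoxin is a small protein that reduces disulphides in other proteins and feeds electrons to peroxiredoxins. Thioredoxin reductase recharges it with electrons from NADPH, and the thioredoxin-interacting protein binds and inhibits it and also limits glucose uptake. Metallothioneins are small cysteine-rich proteins that bind zinc and copper, and their genes respond to metals, glucocorticoids and oxidative stress. Superoxide dismutases turn superoxide into hydrogen peroxide, which catalase and the peroxiredoxins then remove.

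Txnip, the inhibitor of thioredoxin, was below 0 on 22 of the 24 arrays, and its organ mean was below 0 in all 6 organs. Its organ means averaged -0.44 ± 0.20 (SD, n = 6 organs). Of the rows with a value on all 24 arrays, 0.358% (13 of 3630) were below 0 on at least 22, and an organ mean below 0 in all 6 organs was seen for 4.2% of rows. Since Txnip was chosen on these values, nothing is read from these shares. After each array was centred on its median, Txnip was below 0 on 20 of 24 arrays.

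In brown adipose tissue the 4 Txnip log2 ratios were -0.62, -0.74, -0.81 and -0.84 in replicates 1 to 4. The arrays lay close together in both dye orientations, and their mean of -0.75 ± 0.10 (SD, n = 4) is a 1.68-fold lower level in the mutant pool. In heart the values were -0.37, -0.51, -0.76 and -0.86, with a mean of -0.62 ± 0.23 (1.54-fold lower). Without heart replicate 2 the mean was -0.66. In testis they were -0.52, -0.34, -0.40 and -0.19, with a mean of -0.36 ± 0.14, again all below 0. In brown adipose tissue the 18 skeletal muscle markers had a median of 0.54, with 2 of 18 means below 0 and none called. Their medians on replicates 1 to 4 were 0.85, 0.56, 0.28 and 0.54, while the adipocyte markers had a median of -0.01. The part of muscle tissue in the brown adipose values was not tested.

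In lung the Txnip ratios were -0.12, -0.15, -0.66 and -0.47, with a mean of -0.35 ± 0.26. The replicates with mutant RNA in Cy3 were the lower pair there, as they were in heart and brown adipose tissue. In spleen the values were -0.81, -0.31, -0.22 and 0.44, with a mean of -0.22 ± 0.51. In skeletal muscle they were -0.29, 0.52, -0.46 and -1.16, with a mean of -0.35 ± 0.69. Spleen and skeletal muscle each had 1 array above 0, and in both organs the SD was larger than the mean. The muscle array with Txnip above 0 was also the one with the lowest median over all probes, and the one with the lowest Txnip ratio had the highest median, of -0.81 and 0.69 over all rows, so that centring widened the range to between -1.85 and 1.33.

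In the order of their means, brown adipose tissue and heart were the lowest and spleen the highest, and no 2 neighbouring organs differed by more than the larger SD of the pair except heart and testis. Over all arrays the mean was -0.35 ± 0.35 where Cy5 marked the mutant RNA and -0.53 ± 0.42 where Cy3 did (n = 12 each). This difference of 0.18 was smaller than that of 76.5% of all rows. The single Txnip probe passed the threshold in no organ in the main model. It was called lower in heart and in brown adipose tissue in 2 of 37 alternatives, both with array weights. Under weights from all tested rows 0.0939% and 0.0263% of all rows were called lower there, and nothing is read from these calls, since these values chose the gene.

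**Figure D1:**
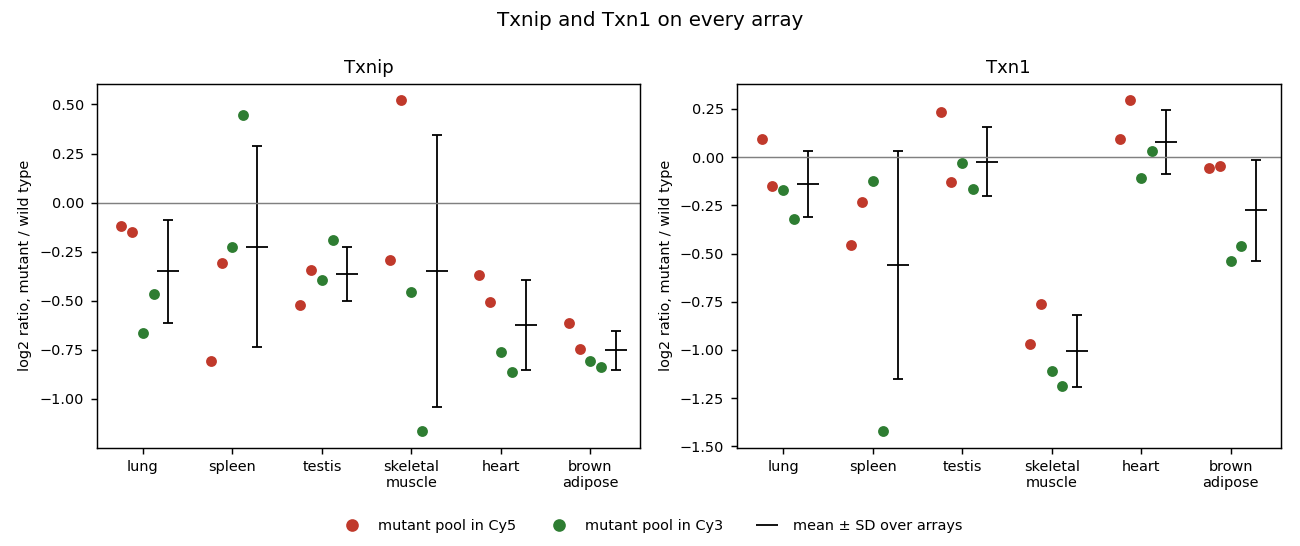
Log2 ratio of mutant over wild type for Txnip (left) and Txn1 (right) on each array, by organ; red points have the mutant pool in Cy5, green points in Cy3, and the bar gives the mean ± SD over arrays. Txnip lies below 0 on 22 of 24 arrays, and the 4 skeletal muscle arrays of Txn1 lie between -1.19 and -0.76.

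The Txnip promoter is shown as the regulatory sequence of the lead gene of the thioredoxin system. It covers the 250 bases before the transcription start, chr3:96557707-96557956 on the plus strand, from RefSeq on GRCm38.p6. Capitals mark the only match to any of 5 searched motifs, at positions -208 to -202 from the start.

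Txnip: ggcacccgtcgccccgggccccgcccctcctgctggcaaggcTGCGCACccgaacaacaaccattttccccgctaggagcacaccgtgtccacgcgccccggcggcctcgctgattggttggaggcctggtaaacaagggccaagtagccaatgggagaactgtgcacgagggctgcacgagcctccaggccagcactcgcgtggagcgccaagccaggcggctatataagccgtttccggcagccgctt

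The motifs were searched on both strands, and their shares are those of all 32851 promoter windows of the same length. TGCACNC and TGCGCNC are the forms of the metal response element core, the site of the metal-sensing factor MTF-1, and were present in 10.4% and 12.5% of windows. CACGTG, an E-box core, was present in 6.02%. AAAGGTCA, the monomer site of Nur77 itself, was present in 1.34%, and TGACNNNGC, the core of the antioxidant response element, in 10.2%. The capitals in Txnip are a TGCGCNC match. Neither AAAGGTCA nor CACGTG was found in the windows of the 9 genes that have one, and Gsta4 has none in the table. TGACNNNGC was found for 4 of the 9, namely Mt2, Txnrd1, Prdx1 and Sod1. Such matches describe letters only. Variant or paired forms of these sites, such as E-box-like pairs with other letters, were not searched, so their absence is not shown.

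Txn1, thioredoxin itself, was lowest in skeletal muscle, at -0.97, -0.76, -1.11 and -1.19. All 4 arrays were below those of every other organ except 1 spleen array, and the mean of -1.01 ± 0.19 is a 2.01-fold lower level. In spleen the values were -0.46, -0.23, -0.12 and -1.42, with a mean of -0.56 ± 0.59 that rests largely on replicate 4. In brown adipose tissue they were -0.06, -0.05, -0.54 and -0.46, all below 0 with the mutant in Cy3 the lower pair. Means in lung (-0.14), testis (-0.02) and heart (0.08) were within 1 SD of 0. The medians of the muscle arrays over all rows were -0.46, -0.81, 0.01 and 0.69, and after centring the Txn1 mean there was -0.86 and was not called. With the signs of the Cy3 arrays turned it would be 0.14.

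Txnrd1, the reductase of thioredoxin, was the only one of the 10 genes above 0 on every array in lung and in testis at once. In testis the values were 1.72, 1.49, 1.09 and 0.68, with a mean of 1.24 ± 0.46 (2.37-fold higher), or 0.36 with the signs of the Cy3 arrays turned. In lung they were 0.51, 1.43, 0.67 and 0.21, with a mean of 0.71 ± 0.52. Testis also had Prdx1 above 0 on every array, beside 9.68% of all rows there, and in lung 8% of all rows were above 0 on every array. The means of both Txnrd1 probes were positive in both organs, although one of them was below 0 on 2 of 4 lung arrays. In testis one averaged 0.66 ± 0.58 (n = 4) and the other 1.83 ± 0.84 (n = 4), and in lung they averaged 0.32 ± 0.76 (n = 4) and 1.36 ± 0.12 (n = 2).

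Elsewhere Txnrd1 did not hold 1 sign. In spleen it ran -0.37, -2.85, -0.82 and 0.71, and in skeletal muscle -1.02, -1.33, -3.07 and 1.10, with replicate 4 the only positive array in both organs. In heart the values were -0.25, 0.25, -0.45 and -0.75, and in brown adipose tissue 1.28, -0.03, -0.43 and 0.14. The skeletal muscle mean was -1.08 ± 1.71 and the spleen mean -0.83 ± 1.49, each smaller than its SD. In lung, markers of skeletal muscle were lower in the mutant pool, with 3 of 16 called and a median of -1.30. Of the cardiac muscle markers 1 of 5 was called higher there, and of all rows 0.0809% were called in either direction. The part of such tissue in the lung values was not tested.

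The Mt2 promoter is shown because it carries 3 matches to the metal response element core. It covers the 250 bases before the transcription start, chr8:94172368-94172617 on the plus strand (RefSeq, GRCm38.p6). Capitals mark, in order, TGCACNC (-223 to -217), TGCGCNC (-128 to -122), TGACNNNGC (-79 to -71) and TGCACNC on the reverse strand (-50 to -44).
Mt2: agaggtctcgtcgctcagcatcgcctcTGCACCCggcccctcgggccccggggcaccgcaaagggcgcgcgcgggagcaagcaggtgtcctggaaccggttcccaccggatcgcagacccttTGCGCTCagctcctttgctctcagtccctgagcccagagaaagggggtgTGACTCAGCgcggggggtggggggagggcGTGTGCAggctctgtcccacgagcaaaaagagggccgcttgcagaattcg

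The window of Mt1 in the same table, chr8:94178839-94179088, holds 1 TGCACNC match (-23 to -17). The annotated Mt1 gene begins at base 94178883, inside that window, so the window belongs to a later start within the gene and is not printed.

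Mt2 had the widest spread of organ means among the 10 genes, with an SD of 1.09. In skeletal muscle its values were -3.41, -3.06 and -0.23 in replicates 1 to 3, with none in replicate 4. The mean of -2.23 ± 1.74 (SD, n = 3) is a 4.70-fold lower level. The 2 replicates with mutant RNA in Cy5 averaged -3.23, and the single array with it in Cy3 stood at -0.23, so the size rests on 1 dye orientation. Both probes were low on the Cy5 arrays, at -1.67 and -3.81 for one and -5.14 and -2.31 for the other. The second probe has no value in the Cy3 orientation.

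In the other 5 organs the Mt2 mean was above 0. In spleen the values were 0.68, 0.09, 2.08 and -0.06, with a mean of 0.70 ± 0.97. In testis they were 0.33, 0.67, -0.01 and 1.24 (mean 0.56 ± 0.53), and in brown adipose tissue 0.78, 0.04, 0.62 and -0.06 (mean 0.34 ± 0.42). Lung ran -0.40, 0.40, 0.55 and 0.04 (mean 0.15 ± 0.42), and heart 0.18, 0.01, -0.37 and 0.53 (mean 0.09 ± 0.37). In each of these 5 organs the arrays fell on both sides of 0. Over all organs Mt2 was above 0 on 15 of 23 arrays.

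The spleen and testis means came from 1 probe. That probe averaged 1.88 ± 1.94 (n = 3) in spleen and 1.09 ± 1.08 (n = 4) in testis, while the other averaged -0.04 ± 0.21 and 0.02 ± 0.23 (n = 4 each). In brown adipose tissue the order was opposite, at -0.21 ± 0.62 (n = 3) and 0.65 ± 0.44 (n = 4). In the spleen comparison 9 of 12 tested exocrine pancreas markers were called lower, with a median of -4.07, beside 1.53% of all rows called in either direction. Also called were 1 of 7 cardiac muscle and 1 of 8 adipocyte markers, both higher, and 1 of 13 skeletal muscle markers, lower. The part of such tissues in the spleen values was not tested.

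Mt1, on 1 probe, had a value on 15 of 24 arrays and was below 0 on 11. In heart the values were 0.48, -3.29, -1.16 and -0.94, with a mean of -1.23 ± 1.56. The lowest of these came from replicate 2, whose wild-type channel is labelled skeletal muscle, and without it the mean was -0.54. In brown adipose tissue they were -0.08, -1.17, -0.11 and 0.27, and in lung 0.34, -0.26 and 0.50. The 2 muscle arrays with a value stood at -1.13 and -0.33, on the same side of 0 as Mt2 there. Spleen and testis had 1 value each, of -1.52 and -0.79, where the Mt2 means were above 0.

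**Figure D2:**
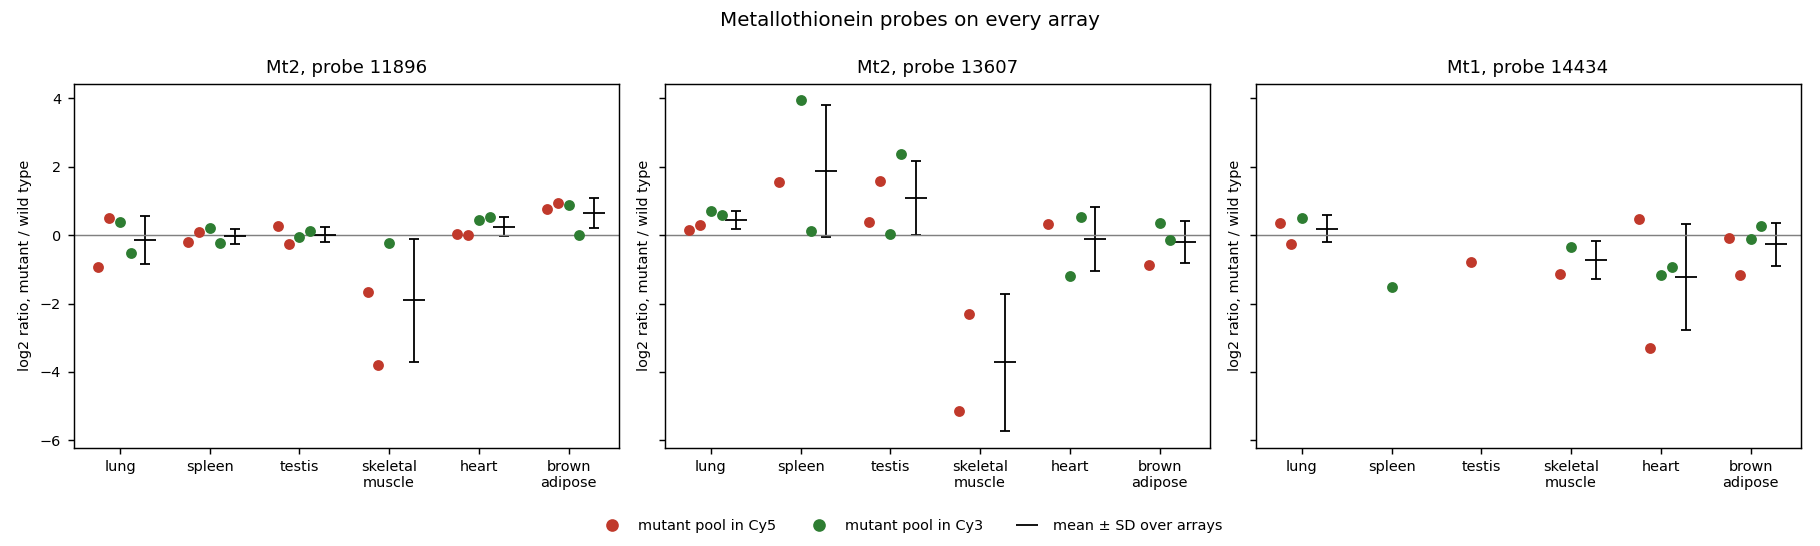
Log2 ratio of mutant over wild type for both Mt2 probes and the Mt1 probe on each array, by organ; red points have the mutant pool in Cy5, green points in Cy3, and the bar gives the mean ± SD where at least 2 arrays have a value. In skeletal muscle the Cy5 points of both Mt2 probes lie between -5.14 and -1.67.

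Gsta4, a glutathione transferase that detoxifies lipid aldehydes, differed widely between the dye orientations. Its mean over arrays was -2.24 ± 1.53 where Cy5 marked the mutant RNA and 0.74 ± 1.10 where Cy3 did (n = 11 each). Only 0.934% of 15102 rows had a larger difference between orientations than its -2.97, against a median size of 0.417. With the signs of the Cy3 arrays turned, its mean was below 0 in all 6 organs, from -2.45 in skeletal muscle to -0.21 in brown adipose tissue. The difference was larger on one of its probes, which averaged -2.89 ± 1.77 (n = 10) in Cy5 and 1.52 ± 0.95 (n = 9) in Cy3 and kept 1 sign in each. The other averaged -1.11 ± 1.36 (n = 7) and -0.36 ± 1.68 (n = 9), with 6 of 7 and 4 of 9 arrays below 0. In skeletal muscle the values were -4.68, -4.39, 1.35 and -0.63, and in lung -2.54, -3.84, 1.38 and -0.80. Both organs have low means, of -2.09 ± 2.95 and -1.45 ± 2.26, with an SD larger than the mean. In spleen the values -1.73, -2.82, 1.12 and 2.94 averaged to -0.12. Heart (-0.92, -0.92 and 1.26) also had the Cy5 arrays below 0 and its Cy3 array above it. Testis ran -1.60 in Cy5 and 1.09 and 0.71 in Cy3. There the Cy5 value came from one probe and the Cy3 values from the other, so probe and orientation cannot be told apart. Without heart replicate 2 the heart mean changed from -0.19 to 0.17. In brown adipose tissue all 4 arrays were below 0, at -0.85, -0.29, -0.22 and -0.09.

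**Figure D3:**
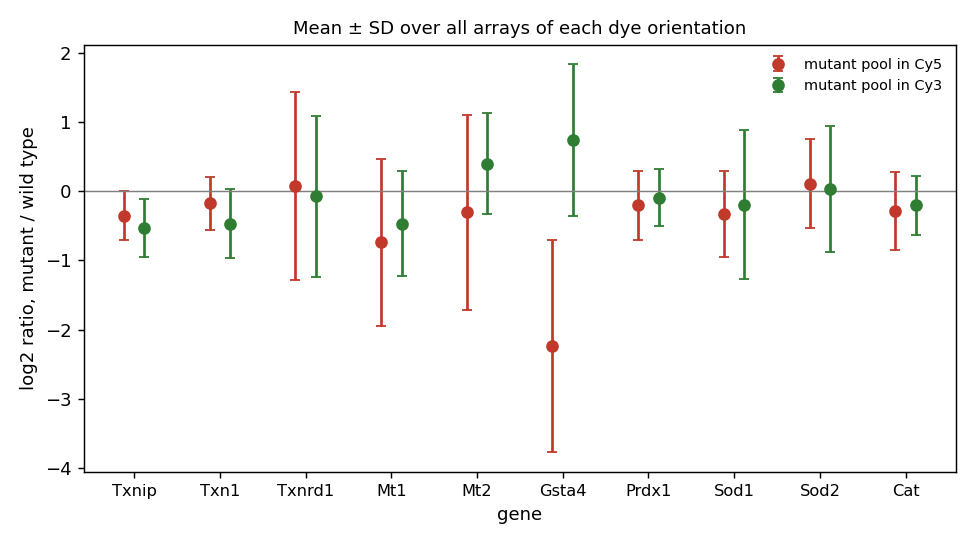
Mean log2 ratio of mutant over wild type over all arrays of each dye orientation, for each of the 10 genes; points give the mean and bars ± SD over arrays, red for mutant RNA in Cy5 and green for mutant RNA in Cy3. The orientations stand apart for Gsta4, at -2.24 and 0.74, and overlap within 1 SD for the other 9 genes.

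Prdx1, which removes hydrogen peroxide with electrons from thioredoxin, ran from -1.23 to 0.93 over the arrays. In testis it was above 0 on all 4 arrays, at 0.93, 0.17, 0.27 and 0.38 (mean 0.44 ± 0.34). In lung its values were -0.26, -0.29, -0.34 and 0 (mean -0.22 ± 0.15). In skeletal muscle (mean -0.48 ± 0.68), spleen (-0.39 ± 0.38), brown adipose tissue (-0.14 ± 0.31) and heart (-0.10 ± 0.15), 3 of 4 arrays were below 0. Only in testis was its mean positive.

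Cat, catalase, was below 0 on every array in skeletal muscle, at -0.33, -0.42, -0.32 and -1.09 (mean -0.54 ± 0.37), and in heart, at -0.09, -0.09, -0.30 and -0.44 (mean -0.23 ± 0.17). In muscle, replicate 4 stood apart from the other 3. After centring, the first 2 muscle arrays were above 0, at 0.13 and 0.39 (the centred mean was -0.39). In lung Cat was 0.21, 0.43, 0.28 and -0.11 (mean 0.20 ± 0.23). Spleen and testis had arrays of both signs, with means of -0.45 ± 0.61 and -0.34 ± 0.87, and brown adipose tissue stood at -0.12 ± 0.18.

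Sod1, the cytosolic superoxide dismutase, was below 0 on every array in testis, at -0.66, -0.15, -1.26 and -0.36 (mean -0.61 ± 0.48), and in heart, at -0.01, -1.24, -0.30 and -0.40 (mean -0.49 ± 0.53, or -0.24 without replicate 2). Its probes went apart. One had a value on all 24 arrays with an SD of 0.33 and organ means from -0.41 in lung to -0.10 in testis, all below 0. In testis it stood at 0.15, -0.15, -0.07 and -0.36, so it was above 0 on replicate 1. The other had 17 values with an SD of 2.28 and organ means from -1.97 to 1.59. Its only testis values were -1.48 in replicate 1 and -2.45 in replicate 3.

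Sod2, the mitochondrial superoxide dismutase, showed the same split between its probes. The more stable one, with an SD of 0.44 over 23 arrays, averaged -0.61 ± 0.41 in skeletal muscle, -0.22 ± 0.32 in lung and 0.05 ± 0.41 in brown adipose tissue. The other, with an SD of 1.77 over 15 arrays, averaged 2.61 in muscle on its 2 values. The averaged means were 0.23 ± 1.05 in muscle, -0.48 ± 0.78 in lung, 0.53 ± 0.72 in testis, 0.31 ± 0.50 in brown adipose tissue, -0.18 ± 0.51 in heart and -0.01 ± 0.97 in spleen. None held 1 sign on all arrays.

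For the 5 genes with 2 probes, the probes' Pearson r over shared arrays was 0.502 for Txnrd1 (15 arrays), 0.496 for Mt2 (19), 0.345 for Gsta4 (13), -0.47 for Sod2 (14) and -0.71 for Sod1 (17). These arrays share dye orientation and organ. Over 2093 genes with 2 probes the median r was 0.044, with quartiles of -0.20 and 0.281. Txnrd1, Mt2 and Gsta4 lay above the upper quartile and both superoxide dismutases below the lower one.

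**Figure D4:**
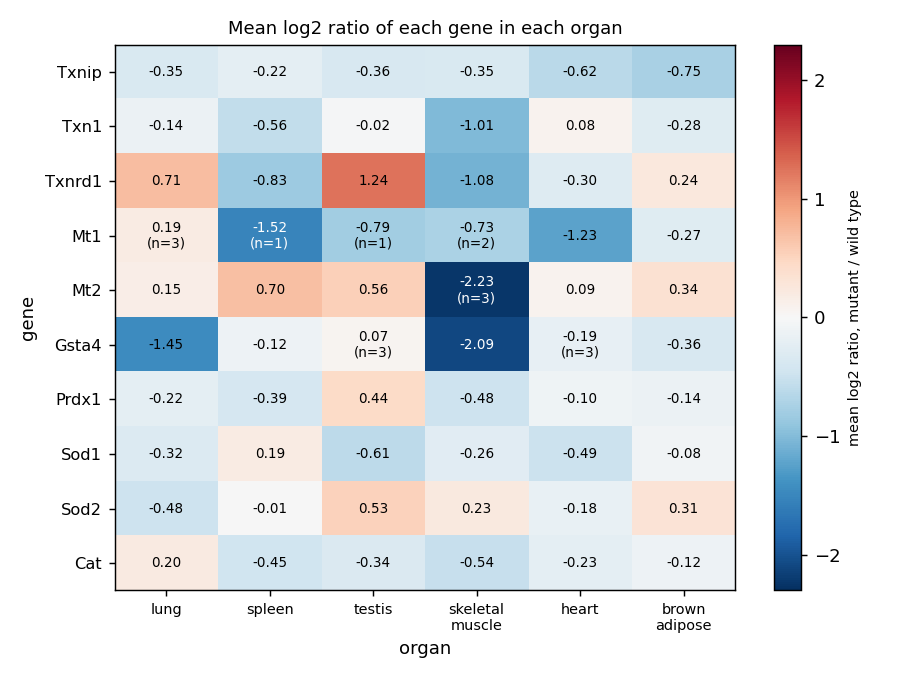
Mean log2 ratio of mutant over wild type of each gene (rows) in each organ (columns), with red above 0 and blue below; n is given where fewer than 4 arrays had a value. Txnip is below 0 in all 6 columns, Txnrd1 stands at 1.24 in testis (0.36 with the Cy3 arrays turned), and Mt2 and Gsta4 are lowest in skeletal muscle at -2.23 and -2.09.

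In a linear model over all 24 arrays with organ and dye terms (limma, Benjamini-Hochberg adjusted p under 0.05 within an organ), 3 of the 57 tested pairs of gene and organ were called. All were lower in skeletal muscle, namely Mt2, Txn1 and Gsta4, out of 9 tested there. The background was 5.59% of all rows called in muscle in either direction and 2.23% lower, and 1.09% of all row and organ pairs over the 6 organs. In spleen none of 9 was called beside 1.53% of rows, in lung none of 10 beside 0.0809%, and in testis, heart and brown adipose tissue no row at all was called. Nr4a1, the deleted gene, was itself called only in skeletal muscle. In brown adipose tissue it was not called at a mean of -1.14 ± 0.11 (SD, n = 4), so a missing call does not show that a gene was unchanged. Because these ratios chose the genes, nothing is read from the count. Without skeletal muscle replicate 1, or without replicate 2, only the Txn1 call was left, and with array weights it was the only one of the 3 still called. Gsta4 in muscle averaged -4.54 in Cy5 and 0.36 in Cy3 (n = 2 each). Its call was also lost with no dye term and without muscle replicate 4, where Txnrd1 was called lower instead. The model gave each row 1 spread shared by all organs, so an SE or p-value in muscle or spleen also rests on organs with a narrower spread. The median absolute deviation of an array ran from 0.63 to 1.18 in muscle and from 0.24 to 0.36 in brown adipose tissue. With organs fitted alone, 0 rows were called in any organ.

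The median of the 10 genes' means was -0.63 in skeletal muscle beside -0.16 for all rows tested, -0.31 in spleen beside -0.07, and -0.21 in heart beside -0.01. It was -0.18 in lung beside -0.01, -0.13 in brown adipose tissue beside -0.07, and 0.02 in testis beside 0.02. Without Mt1, which was not tested in muscle, spleen and testis, the medians there were -0.54, -0.22 and 0.07. Among the genes tested, those below 0 on every array were 3 in muscle (Mt2, Txn1 and Cat), heart (Txnip, Sod1 and Cat) and brown adipose tissue (Txnip, Txn1 and Gsta4), beside 14.2%, 9.15% and 11% of all rows. Testis had Txnip and Sod1 beside 7.03%, lung had Txnip beside 9.33%, and spleen had Txn1 beside 11.8%. These signs are those of the averaged probes, and in testis the more stable Sod1 probe was above 0 on 1 array. No gene was below 0 on every array in all organs.

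The other genes of these pathways were taken from lists by function, of which 63 of 83 genes were on the platform. Between 51 and 60 of them were tested per organ. By the same limma model 2 of 52 were called higher in skeletal muscle, beside 3.36% of all rows. In spleen 1 of 51 was called lower, beside 1.53% of all rows called there in either direction, and none was called in the other organs. As shares these counts are near those of all rows, and nothing is read from them. At an unadjusted p under 0.05 there were 11 of 52 in muscle (21.2%, beside 20.2% of all rows), 6 of 51 in spleen (11.8% beside 15.4%) and 2 of 54 in lung (3.70% beside 6.63%). There was 1 of 60 in brown adipose tissue (1.67% beside 0.67%), and 0 in testis and heart, beside 3.63% and 2.05%. With the signs of the Cy3 arrays turned, all 3 pathway calls and both calls of Glul, the glutamine synthetase gene, were lost. Their medians lay near those of all rows, for example -0.17 beside -0.16 in muscle and -0.10 beside -0.07 in spleen.

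Sod3, the extracellular superoxide dismutase, rose in skeletal muscle. Its 4 ratios were 1.62, 1.52, 1.24 and 1.23, all above 1 in both dye orientations. The mean of 1.40 ± 0.26 (SE) is a 2.65-fold higher level in the mutant pool (limma, adjusted p = 0.0024, higher on 4 of 4 arrays). It kept its call in 33 of 37 alternative analyses, and lost it with the Cy3 arrays turned, with arrays centred and scaled, with organs fitted alone and with array weights from complete rows. In the same organ the Sod1 mean was -0.26 ± 1.67 and the Sod2 mean 0.23 ± 1.05 (SD, n = 4).

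Ftl1, the light chain of the iron store ferritin, also rose in skeletal muscle, with ratios of 0.22, 5.02, 2.13 and 2.75. The mean was 2.53 ± 0.43 (SE; 5.77-fold; limma, adjusted p = 0.00116, 4 of 4 arrays). The SD over the muscle arrays was 1.98, while the SE draws on the spread of Ftl1 in all organs. Its call was kept in 33 of 37 alternatives and lost with arrays 2 and 4 left out, with the Cy3 arrays turned, with organs fitted alone and with array weights from complete rows. Across the same muscle arrays the medians of lymphocyte markers were -2.58, -2.32, 0.80 and 1.27 and those of macrophage and granulocyte markers -2.73, -1.70, 0.49 and 2.40, which is the dye order. Called higher in muscle were 3 of 17 skeletal muscle markers, 1 of 8 adipocyte and 1 of 3 erythroid markers, beside 3.36% of all rows. Called lower was 1 of 7 male germ cell markers, beside 2.23% of all rows. Their part in the muscle results was not tested.

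Nfe2l1, a relative of the antioxidant regulator Nrf2, fell in spleen, at -1.30, -1.60, -1.57 and -0.99. The mean was -1.37 ± 0.33 (SE; limma, adjusted p = 0.0405, lower on 4 of 4 arrays). The call was kept in 17 of 37 alternatives, and it was lost without spleen replicate 1, 2 or 3, without testis replicate 3 or 4, and without any 1 of the heart or brown adipose tissue arrays. Its 3 probes averaged -0.54 ± 1.08 (SD, n = 4), -1.69 ± 1.66 (n = 3) and -2.29 ± 1.97 (n = 3), each with a wider spread than the averaged values. The 4 array medians of the exocrine pancreas markers in spleen ran from -5.08 to -3.30, and their part in this result was not tested.

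By group, none of the 15 tested glutathione transferases was called in muscle, with a median of -0.29 and 13 of 15 means below 0. In lung 12 of 16 means were below 0, with a median of -0.22. None of the 8 tested thioredoxin and glutaredoxin genes in muscle was called, and their median was 0.61, against -1.01 for Txn1 itself. The other alpha-arrestins, the protein family of Txnip, had a median of 0.19 in brown adipose tissue over 3 genes and 0.19 in heart over 3 genes, with none called.

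Of the pathway genes with 1 sign on every array, the one with the largest mean in each direction is given next for each organ. In testis glutaredoxin, Glrx, averaged 2.01 ± 0.41 (SD, n = 3) and Gpx6 -0.18 ± 0.12 (n = 4). In lung the zinc importer Slc39a14 averaged 1.15 ± 0.75 (n = 3) and the glutathione transferase Gstm3 -1.41 ± 1.97 (n = 3). In spleen Nfe2l2, the gene of Nrf2, averaged 1.15 ± 1.76 (n = 3) and the metallothionein Mt3 -1.37 ± 1.71 (n = 4). In muscle Ftl1 was the largest above 0, and the glutathione synthetase Gss, the largest below 0, averaged -1.29 ± 0.80 (n = 3). In heart Sqstm1 averaged 0.55 ± 0.47 and Taldo1 -0.35 ± 0.28 (n = 4 each). In brown adipose tissue sulfiredoxin, Srxn1, averaged 1.28 ± 1.60 (n = 3) and Gstm3 -1.12 ± 0.27 (n = 3).

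Of the glucocorticoid-response genes, which share an inducer with the metallothioneins, Glul, glutamine synthetase, was called higher in spleen and in muscle. In spleen the values were 1.25, 0.84, 0.97 and 2.68, with a mean of 1.44 ± 0.28 (SE; limma, adjusted p = 0.0131, 4 of 4 arrays). In muscle they were 1.72, 1.61, 1.01 and 2.43, with a mean of 1.69 ± 0.28 (SE; limma, adjusted p = 0.00107, 4 of 4 arrays). The muscle mean joins probes of opposite sign, at 5.07 ± 1.10 and -1.69 ± 1.05 (SD, n = 4 each). Without spleen replicate 4 the spleen call was lost. No other gene of this list was called.

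The genes whose ratios followed Txnip most closely over the arrays were Lrig1 (Pearson r = 0.83, 24 arrays), Oxct2b (0.78, 23 arrays) and Zdhhc17 (0.77, 24 arrays), of 6554 genes with at least 20 shared arrays. For Mt2 they were Jag1 (0.85, 21 arrays), Ccr7 (0.83, 23 arrays) and Inpp4b (0.83, 20 arrays), of 6127. The arrays of an organ and a dye orientation are not independent, and these values only describe likeness. Txnip and Mt2 ran against each other, with r = -0.38 over 23 arrays. Among the 10 genes, leaving out Mt1, which had too few arrays, Gsta4 was nearest to Mt2 (0.601, 21 arrays) and Cat nearest to Txnip (0.212, 24 arrays). Mt2 stood at -3.41 and -3.06 on skeletal muscle replicates 1 and 2 and from -0.40 to 2.08 elsewhere. Gsta4 was at -4.68 and -4.39 on those muscle arrays. The r values of Mt2 therefore lean on them, and r without them was not computed.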

How the data were processed

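The deposited values are log2 ratios that the authors computed for each probe on each array. The sources used here do not give their scale, centring, direction, background correction or software, and log base 2 was read from the values. The labels' protocols describe indirect labelling of 20 µg total RNA. Ratios with a size above 12 (1.24% of 392774; none lay between 9.94 and 15.70) were taken as missing. Symbols came from the platform annotation, with 13891 of 20205 probes having 1 symbol, 5 several and 6309 none. Probes of a symbol were averaged, and probes without a single symbol were kept as rows of their own, giving 16148 rows.

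limma 3.58.1 in R 4.3.3 fitted 6 organ coefficients and a dye term to all 24 arrays, with Benjamini-Hochberg adjustment over the rows tested in an organ. Each row had 1 estimate of spread, shared by all organs. A row was tested with at most 1 missing array and both dye orientations present. The number of arrays limits the precision. The fit was also run on simulated data in which a row had the same noise level in all organs. That run does not cover the differences in spread between organs in these data. The 10 genes, the pathway lists and the marker lists were chosen with earlier results of these data known. Pathway genes were named where called, or for the largest mean of 1 sign in each direction where fewer than 3 were called in an organ, and context genes where called. Alternatives were large values kept, centring, scaling, other dye terms, a replicate block, array weights, organs fitted alone, complete rows, probe medians, turned signs and each array left out. Markers of lung epithelium and of Leydig and Sertoli cells were listed too, with none called in skeletal muscle or spleen.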

Additional observations from a re-analysis of the deposited data

Results flagged for a closer look

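Cat in skeletal muscle was the 1 value that stood apart from its group. Replicate 4 was at -1.09, while the other 3 arrays lay between -0.42 and -0.32, so that its gap made up 0.877 of the range. The same check covered 53 groups of 4 arrays, of which chance marks about 1 in 20.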

How the results depend on the processing

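Of the 3 called pairs among the 10 genes, none was left with arrays centred and scaled (0), with organs fitted alone (0), or with skeletal muscle replicates 2 and 4 left out (0, chosen after seeing the data). Array weights from complete rows gave 2 calls, neither of them among the 3. Leaving out each array in turn gave 1 to 3, and the 3 without skeletal muscle replicate 4 were Mt2, Txn1 and Txnrd1 in muscle. Among the pathway genes the count of 3 became 1 with centring and scaling, 0 with organs fitted alone, 0 with array weights from complete rows (added after seeing the data), and 2 to 5 with each array left out. Over all rows 851 pairs became 106 with centring and scaling, 271 with array weights, 267 with weights from complete rows, 0 with organs fitted alone, and 671 to 1089 with an array left out. With the signs of the Cy3 arrays turned the count was 1083, of which 10 were shared with the 851. Deviations of same-numbered arrays from their organ means correlated at -0.004 to 0.171 over 60 pairs from different organs. Repeat arrays of the same organ and dye orientation had a median Spearman rho of only 0.116. This check therefore cannot decide whether the replicate numbers pair the samples. With the replicate number as a block in place of the dye term, the counts were 2, 2 and 700, and the calls of Gsta4 in muscle and Nfe2l1 in spleen were lost.

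With the Cy3 arrays turned, Txnip stood at 0.22 in lung, -0.069 in testis, 0.46 in skeletal muscle, 0.19 in heart and 0.072 in brown adipose tissue, Mt2 at -0.31 in spleen and -0.058 in testis, and Txn1 in muscle at 0.14, a reversed sign. With centring and scaling Txnip stood at -0.56 in testis, -1.01 in heart and -1.28 in brown adipose tissue. Both kinds of shift follow from the processing itself. Turning reverses the sign of the Cy3 arrays before the mean is taken. Scaling divides each array by its own spread, which enlarges values on arrays with a narrow spread. Another 18 single-gene values moved by more than 1 SD and 216 did not, and 5 of Mt1 in spleen or testis, from 1 array each, have no SD to compare with.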
